A study of Mus musculus with 6 samples.

Results

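The deposited table of small RNA sequences that map to the mouse genome but belong to no annotated small RNA holds 1056 sequences, and 123 of them lie on the mitochondrial chromosome. They were chosen by chromosome alone, and sequences on the same strand whose starts lay within 30 bases of the previous start were summed into 1 locus. This gave 17 mitochondrial loci of 410 loci in all, with 29903 UMIs (unique molecular identifiers, tags that let copies of 1 cDNA molecule be counted once) over the 6 libraries. The chromosome label was checked against the letters: for 50 of the 123 sequences GENCODE gives a transcript letter at every position, and each of these differed from the mitochondrial transcript there by at most 2 bases.

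The libraries were made from isolated mouse urinary bladder cells. The 3 CYP libraries are from mice given cyclophosphamide, an alkylating agent that reaches the urine as compounds toxic to the bladder lining, at 80 mg/kg into the peritoneum in 4 injections on days 2, 4, 6 and 8, taken 8 days after induction. The 3 Control libraries are from mice given saline. Mice of both groups were 8 weeks old per the labels, and each library used 100 ng of RNA and a Qiagen miRNA kit. No genetic change is named. Whether each library is a separate animal is not stated, so a p-value here is set by the spread between libraries, which may be technical.

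The mitochondrial chromosome is a small circle read from both strands into long precursor RNAs. The tRNAs sit between the rRNAs and many of the mRNAs, and cutting at the tRNA ends releases most of these RNAs. The 3' ends are then finished: tRNAs receive the letters CCA, which carry the amino acid, while rRNAs and mRNAs receive short or long runs of A. The 1 long stretch without genes, the control region, holds promoters; RNAs that start at the light-strand promoter run through it on the minus strand, and some of them serve as primers for DNA replication.

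The 17 loci fell into 4 in rRNA genes, 10 in tRNA genes and 3 wholly or mostly outside genes, and none of the 123 sequences lay in a protein-coding gene. Loci on the plus strand, which most mitochondrial genes read on, numbered 12, and 5 were on the minus strand. The sequences were 16 to 46 bases long with a median of 31, against a median of 22 for the sequences of the same table on nuclear chromosomes. Of the 50 sequences whose reference letters are all known, 2 matched them at every base, and the others departed from them within their last 4 bases. The sequences below show examples of these ends. They include the most abundant sequence of each of the 4 most abundant loci, which together hold 86.1% of the mitochondrial UMIs. Each is given 5' to 3' with chromosome positions of the mm10 build. At the 3' ends of tRNA genes, capitals mark letters after the annotated end of the gene. In rRNA genes they mark letters at the 3' end that depart from the reference. In the control region they mark letters that depart from the longest sequence, and no letter of the gap sequence is marked.
mt-Th 3' end (chrM:11576-11613, plus strand), form with A, the most abundant: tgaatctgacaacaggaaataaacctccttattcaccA
mt-Th 3' end, form with CA: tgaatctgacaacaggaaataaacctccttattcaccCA
mt-Th 3' end, form with CC: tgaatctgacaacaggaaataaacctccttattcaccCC
mt-Th 3' end, form with C: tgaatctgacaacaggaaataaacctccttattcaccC
mt-Th 3' end, form with AA: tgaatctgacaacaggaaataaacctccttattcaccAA
mt-Tv 3' end (chrM:1059-1096, plus strand): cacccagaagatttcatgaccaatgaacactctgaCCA
mt-Ta 3' end (chrM:5015-5048, minus strand): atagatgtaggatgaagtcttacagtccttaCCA
mt-Rnr1 3' end (chrM:980-1025, plus strand): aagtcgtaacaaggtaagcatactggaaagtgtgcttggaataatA
mt-Rnr2 interior b (chrM:2466-2485, plus strand): tattaatggttcgtttgtAA
mt-Rnr2 3' end (chrM:2657-2682, plus strand): ctctaacctagagaaggttattaggA
control region proximal (chrM:16169-16188, minus strand), the most abundant form: gaattgatcaggacataggg
control region proximal (chrM:16161-16188, minus strand), the second form: gaattgatcaggacatagggtttgatag
control region distal (chrM:15608-15642, minus strand): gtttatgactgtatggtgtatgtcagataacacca
mt-Tn to mt-Tc gap (chrM:5158-5176, minus strand): tttttcggcggtagaagaa

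The mitochondrial sequences held 4514, 4873 and 4026 UMIs in the CYP libraries and 4937, 4918 and 6635 in the Control libraries. They took 6.65%, 7.72% and 6.05% of the UMIs of their table in CYP, against 8.99%, 9.64% and 9.66% in Control. The groups did not overlap, and the exact two-sided permutation test gave p = 0.1, the smallest value that 3 against 3 libraries allow. CPM are UMIs scaled to the same total of a table in every library. Set against the UMIs of the miRNA table, the largest class, the mitochondrial UMIs came to 394, 470 and 428 CPM in CYP. In Control they came to 448, 540 and 545 CPM of the miRNA table. On that scale the groups overlapped (exact two-sided permutation p = 0.2), with means of 431 ± 37.9 in CYP and 511 ± 54.7 in Control (SD, n = 3 each). The CPM of single loci given below are instead scaled to the table of uncharacterized sequences, with TMM factors. Their values cannot be compared with those on the miRNA scale. In these bulk libraries fewer cells of a type and less RNA per cell cannot be told apart. The plus strand held 39.4%, 47.2% and 48.6% of the mitochondrial UMIs in CYP and 43.3%, 49.5% and 51.0% in Control, which overlapped (exact permutation p = 0.5). CYP replicate 1 was the lowest library, and without it the mean difference of CYP minus Control was -0.0446 percentage points, against -2.89 with all libraries.

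Some properties of whole libraries differed without overlap between the groups. Reads too short to use were 12.8% to 15.6% of all reads in CYP and 6.74% to 11.7% in Control, and mRNA reads were 0.183% to 0.200% in CYP and 0.114% to 0.133% in Control. All 6 urothelial miRNAs were found and summed to 42941 to 46559 CPM of the miRNA table in CYP and 38209 to 40536 in Control, and the 3 red cell miRNAs to 317.3 to 373.4 CPM in CYP and 441.5 to 531.9 in Control. The part of these in the results was not tested. Summed levels overlapped for the 3 smooth muscle miRNAs (251581 to 263854 CPM in CYP and 261063 to 283108 in Control) and for the 4 leukocyte miRNAs (2918 to 3905 CPM in CYP and 3343 to 3927 in Control). CYP replicate 1 and Control replicate 3 list no value from 1 to 9 in any table, so a 0 there may stand for anything under 10. Control replicate 1 stood apart, with 12.9% of its reads in tRNA against 3.93% to 6.89% in the other 5 libraries.

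Across the 17 loci, all of which passed edgeR's filter on low counts, 1 was lower in CYP, none was higher, and 16 did not pass the test (edgeR's quasi-likelihood test, Benjamini-Hochberg adjusted over all 363 loci of the table). Among all 363 loci, 0.275% were called lower and 0.275% higher. The log2 fold change of CYP over Control was below 0 at 13 of the 17 (12 with library sizes of the miRNA table), with a median of -0.23 against 0.09 over all loci tested. The groups did not overlap at 4 of the 17 (23.5%), which is close to the 23.4% of all loci tested.

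**Figure D1:**
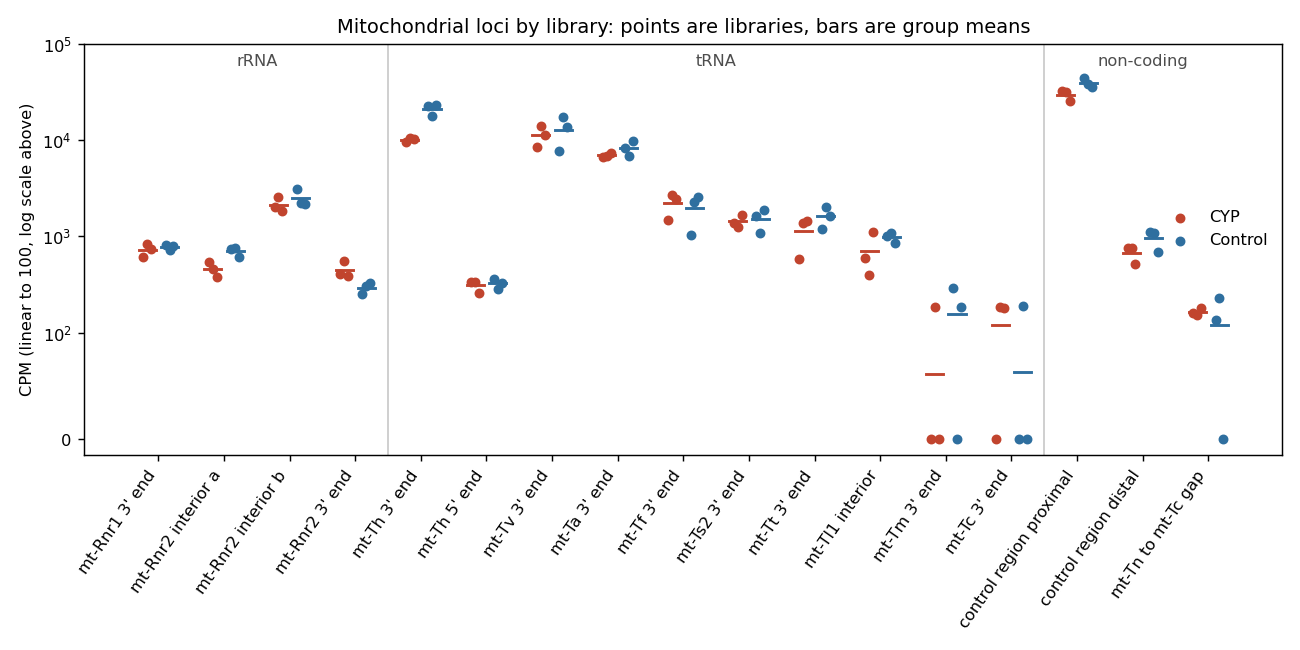
Level of each mitochondrial locus in each library, in CPM (UMIs scaled to a common total of the table with TMM factors; linear to 100 and logarithmic above), with CYP libraries left of Control libraries and a bar at each group mean. The proximal control region locus is the most abundant in both groups, and at the mt-Th 3' end all 3 CYP libraries lie below all 3 Control libraries.

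The rRNA loci lie in mt-Rnr1 and mt-Rnr2, the genes of the small and the large RNA of the mitochondrial ribosome. Together they held 5.09% to 5.87% of the mitochondrial UMIs in CYP libraries and 4.15% to 5.23% in Control libraries. All 10 rRNA sequences ended in 1 to 4 letters A that begin where the sequence departs from the reference. A later A of such a run can match the reference. The mt-Rnr1 3' end locus (chrM:980-1025) stopped exactly at the annotated end of the gene and then had 1 A (C1025A, the reference base first and the position on the chromosome). It had 42, 54 and 45 UMIs in CYP and 43, 38 and 56 in Control, with overlapping groups (log2 fold change -0.11 ± 0.27, SE).

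The mt-Rnr2 3' end locus (chrM:2657-2682) did not stop at the annotated end of mt-Rnr2. Its 2 sequences ran 6 bases into mt-Tl1, the tRNA gene for leucine that follows directly, before the single A. This locus had 28, 36 and 24 UMIs in CYP and 13, 16 and 23 in Control, each CYP library above each Control library. In CPM of the table of uncharacterized sequences it averaged 450 ± 87.5 in CYP and 293 ± 40.7 in Control (SD, n = 3 each). Its log2 fold change of 0.61 ± 0.30 did not pass the test (edgeR adjusted p = 0.41). It ran from 0.24 to 1.33 over the alternatives, with 0.24 when sequences of the same letters placed at nuclear positions were added.

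The other 2 rRNA loci lie inside mt-Rnr2. At the first (chrM:2233-2256, ending in AA), 37, 30 and 23 UMIs in CYP stood against 39, 40 and 43 in Control, with a log2 fold change of -0.61 ± 0.28 (edgeR adjusted p = 0.36). The groups did not overlap there, but with the nuclear-placed sequences of the same letters added the log2 fold change was -0.15. At the second (chrM:2466-2487), 3 sequences shared 1 start and ended in AA or longer runs of A. Only the first 2 A of each run differ from the reference (T2484A and C2485A), which has A at the positions after them. It had 139, 166 and 113 UMIs in CYP and 163, 118 and 153 in Control, which overlapped.

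The tRNA genes held 10 loci and 51.5% of the mitochondrial UMIs. Of the 22 mitochondrial tRNA genes, 8 had a locus at the 3' end: those for histidine (mt-Th), valine (mt-Tv), alanine (mt-Ta), phenylalanine (mt-Tf), methionine (mt-Tm), cysteine (mt-Tc), threonine (mt-Tt) and 1 of the serine genes (mt-Ts2). In the 7 other than mt-Th, 47 of 50 sequences ended in the 3 letters CCA after the annotated end of the gene, letters that the mature tRNA carries. At mt-Th the annotated gene itself ends in cc, and in the sequences of the mitochondrial locus what followed was A, CA, CC, C or AA. The forms with A and CA, 2 of the 5, thus also ended in the letters CCA. The forms with A and AA match the reference at every base, because mt-Ts2 follows mt-Th directly. Whether their last letters were copied from the chromosome or added cannot be told from the sequence.

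The mt-Th 3' end locus (chrM:11576-11614) was the locus lower in CYP. It had 659, 689 and 630 UMIs in CYP and 1185, 950 and 1637 in Control, and no CYP library reached the lowest Control library. In CPM of the table of uncharacterized sequences it averaged 10144 ± 451 in CYP and 21329 ± 2970 in Control (SD, n = 3 each). This is a 2.10-fold lower level in CYP, a log2 fold change of -1.07 ± 0.16 (SE; edgeR adjusted p = 0.012). With library sizes taken from the miRNA table the log2 fold change was -0.97 (edgeR adjusted p = 0.0202). Leaving out 1 library at a time kept it between -1.04 and -1.19, but the adjusted p of edgeR passed 0.05 without CYP replicate 1 (0.113), CYP replicate 2 (0.0787) or Control replicate 3 (0.051).

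The shares of all 5 forms within the mt-Th 3' end locus overlapped between the groups. The form with A took 42.6%, 43.1% and 39.4% of the locus in CYP and 43.0%, 39.6% and 43.6% in Control. The form with CA took 24.3% ± 4.30 in CYP and 24.1% ± 0.269 in Control, the form with CC 21.3% ± 4.35 in CYP and 20.5% ± 1.55 in Control, and the form with C 12.2% ± 1.77 in CYP and 12.7% ± 0.689 in Control (SD, n = 3 each). When single sequences were tested instead of loci, the 4 forms were each lower in CYP, with log2 fold changes from -1.12 to -1.01 (edgeR adjusted p from 0.0306 to 0.042 over the 942 sequences tested), and 1.38% of all sequences were called. The 4 forms make up the locus already called, in the same libraries, and are not separate observations. The remaining form, with AA, had 8 UMIs in CYP replicate 3 and 0 in the other CYP libraries, against 0, 12 and 12 in Control, and did not pass the filter.

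The same tRNA gave a second locus at its 5' end (chrM:11544-11578), a single sequence with 23, 22 and 16 UMIs in CYP and 19, 15 and 23 in Control:
mt-Th 5' end: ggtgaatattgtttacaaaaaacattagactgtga
It began 2 bases before the annotated start of mt-Th and differed from the reference by T11544G and A11553T, the second of them at base 8 of the annotated gene. Its levels overlapped, at 311 ± 44.2 CPM in CYP and 325 ± 40.4 CPM in Control (SD, n = 3 each), with a log2 fold change of -0.06 ± 0.31. The difference between the fold changes of the 5' and the 3' locus was not tested.

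**Figure D2:**
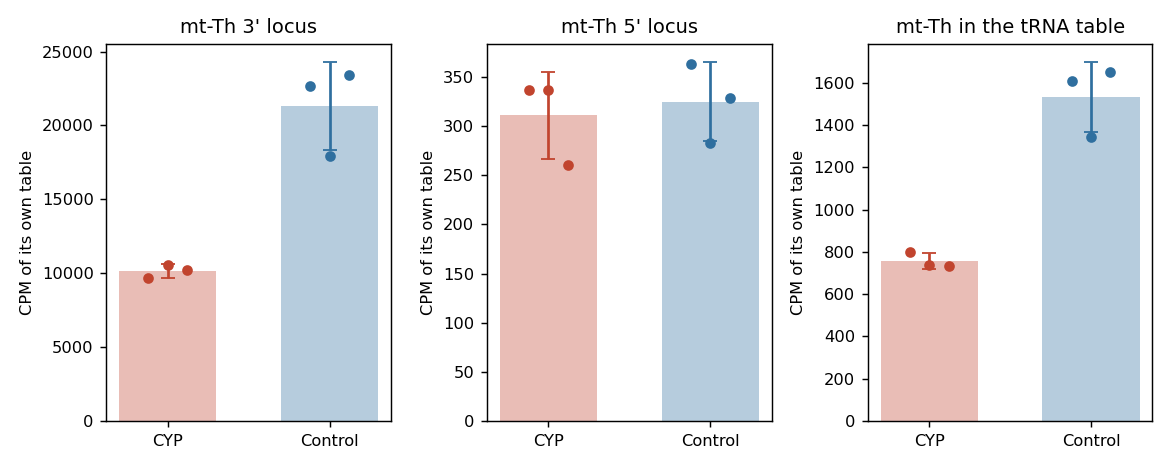
Level of the mt-Th 3' locus, the mt-Th 5' locus and mt-Th in the separate tRNA table, each in CPM of its own table (points are libraries, bars group means, whiskers 1 SD). The 3' locus averages 10144 CPM in CYP and 21329 CPM in Control and the annotated gene 757 CPM in CYP and 1534 CPM in Control, while the 5' locus overlaps.

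mt-Tv, the valine tRNA gene, gave 19 sequences (chrM:1057-1096) that all ended at the same CCA and each began at another base. They were 21 to 40 bases long, and the locus held 14.9% of the mitochondrial UMIs. It had 573, 918 and 697 UMIs in CYP and 404, 916 and 955 in Control. The groups overlapped, and the log2 fold change was -0.20 ± 0.30 (edgeR adjusted p = 0.86).

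The lengths of the mt-Tv fragments varied between libraries. Sequences of 30 bases or fewer took 59.5%, 68.1% and 61.7% of the locus in CYP and 43.6%, 73.9% and 67.8% in Control. Control replicate 1 was the low one, and its mean length of 31.6 bases stood above the 27.7 to 29.6 of the other 5 libraries. Over the 14 sequences with at least 10 UMIs in every library it was 31.8 bases against 27.6 to 29.8. That library also had the lowest share of fragments of 30 bases or fewer at mt-Tf (74.1%, against 80.2% to 88.4% in the others) and at mt-Tt (14.3%, against 23.7% to 27.3%).

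**Figure D3:**
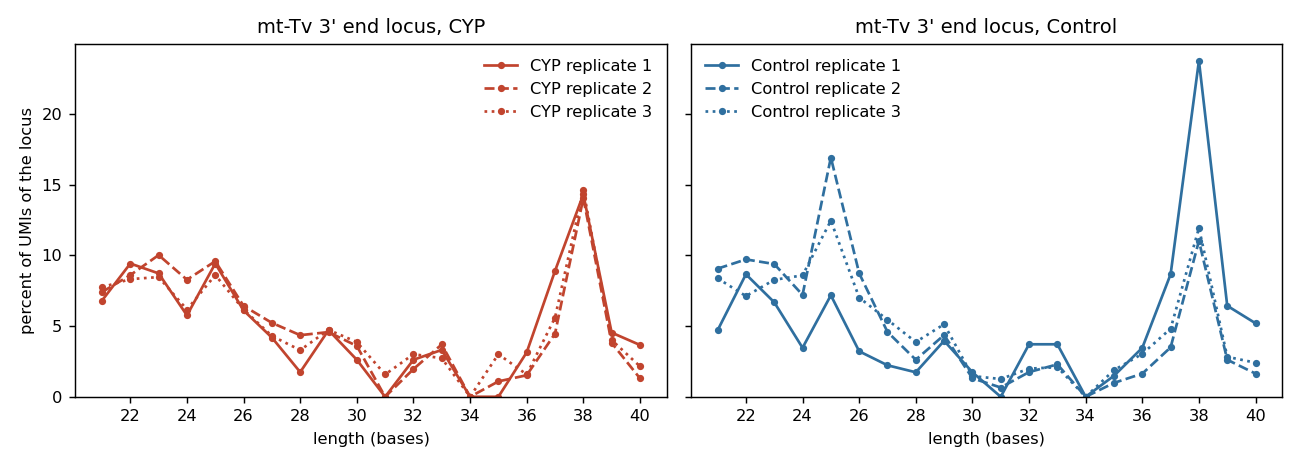
Share of the UMIs of the mt-Tv 3' end locus at each length, in percent, 1 line per library, CYP left and Control right. Each library has a peak at 38 bases and a broad group of shorter sequences, and in Control replicate 1 the balance leans to the longer ones, with 43.6% at 30 bases or fewer.

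mt-Ta, the alanine tRNA gene on the minus strand, had 10 sequences (chrM:5014-5054) and 9.54% of the mitochondrial UMIs. They were 33 to 40 bases long, and 1 of 34 bases held 44.6% of the locus. The locus had 459, 451 and 457 UMIs in CYP and 432, 365 and 690 in Control. In CPM this came to 7017 ± 367 in CYP and 8337 ± 1488 in Control (SD, n = 3 each; log2 fold change -0.25 ± 0.18, edgeR adjusted p = 0.55). Ends with the full CCA took 95.8% to 97.4% of the UMIs in CYP and 93.3% to 96.7% in Control. The others lacked the last A or had 1 A more.

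The remaining tRNA loci were small, and none passed the test. mt-Tf, the first gene of the chromosome, had 101, 175 and 151 UMIs in CYP and 54, 121 and 178 in Control, in 6 sequences of which 1 of 20 bases held 39.1% (chrM:52-71, attgtatcccataaacaCCA). mt-Ts2 had 94, 82 and 102 UMIs in CYP and 86, 58 and 130 in Control. mt-Tt had 40, 89 and 88 UMIs in CYP and 63, 106 and 114 in Control. The groups overlapped at all of these.

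mt-Tl1 differed from the 3' end loci in that its 2 sequences (chrM:2707-2735) ended inside the gene, in AC or ACA where they depart from it. They had 41, 26 and 68 UMIs in CYP and 53, 57 and 60 in Control, and CYP replicates 2 and 3 were the lowest and the highest library. mt-Tm (chrM:3878-3916) had 12 UMIs in CYP replicate 2 and 0 in the other CYP libraries, against 15, 0 and 13 in Control. mt-Tc (chrM:5189-5217) had 0, 12 and 11 UMIs in CYP and 0, 10 and 0 in Control. Both are single sequences at the edge of what the table lists, and their fold changes say little, with SEs of 1.99 and 2.28 on the log2 scale.

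The annotated mitochondrial tRNAs stand in a separate table, in which all 22 genes are listed. There mt-Th averaged 757 ± 36.6 CPM of that table in CYP and 1534 ± 165 in Control (SD, n = 3 each), a log2 fold change of -1.02 ± 0.19 whose edgeR adjusted p was 0.115. None of the 22 genes passed the test there, and 0% of all 369 tRNA features did. With the table's own TMM scaling all 22 log2 fold changes were below 0, with a median of -0.42 against 0.12 over the whole table, and the groups did not overlap at 11 of them, against 32.8% of all features. With library sizes of the miRNA table, 19 of the 22 were below 0, while mt-Tv (0.08), mt-Ts1 (0.01) and mt-Tg (0.11) were above it. On that scale the median of the 22 was -0.18 against 0.35 over the whole table, the groups did not overlap at 6 of them against 32.5% of all features, and no mitochondrial tRNA was called. Without Control replicate 1, the library with the high tRNA share, 8 of the 22 were called lower, where 9.84% of all tRNA features were. Without Control replicate 3, 5 of the 22 were, where 15% of all tRNA features were. The table of other annotated RNA holds no mitochondrial row.

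**Figure D4:**
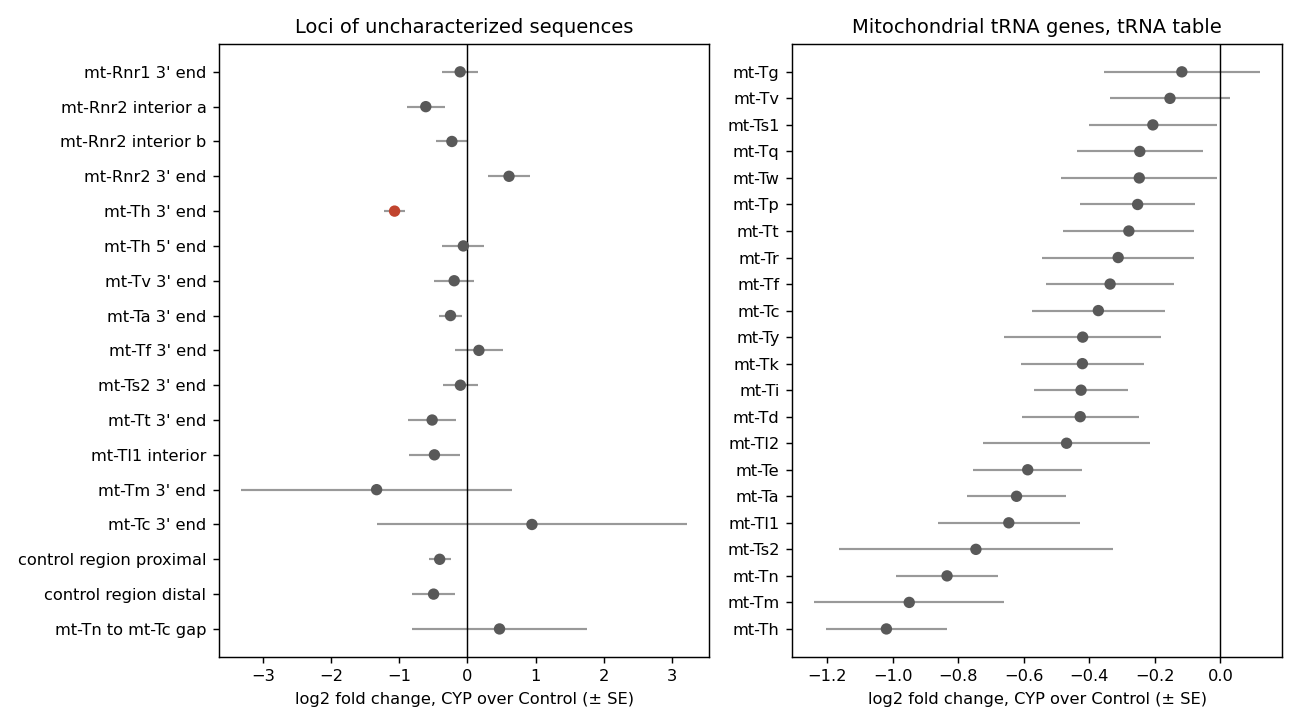
Log2 fold change of CYP over Control with its SE, for the 17 mitochondrial loci (left) and the 22 annotated mitochondrial tRNA genes of the tRNA table (right); the horizontal ranges differ. The mt-Th 3' end, at -1.07, is coloured because its edgeR adjusted p is below 0.05; in the tRNA table with TMM scaling, shown here, all 22 lie below 0 and mt-Th is the lowest at -1.02, while mt-Tv, mt-Ts1 and mt-Tg turn above 0 with library sizes of the miRNA table.

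Wholly or mostly outside the genes lay 3 loci, all on the minus strand, with 39.8% to 50.5% of the mitochondrial UMIs in CYP and 38.6% to 48.0% in Control. The most abundant locus of the chromosome, with 42.4% of the mitochondrial UMIs, was the proximal one in the control region (chrM:16144-16188). It had 2215, 2052 and 1558 UMIs in CYP and 2303, 2038 and 2512 in Control. In CPM it averaged 29719 ± 3842 in CYP and 39469 ± 4178 in Control (SD, n = 3 each), and no CYP library reached the lowest Control library on that scale. The log2 fold change was -0.41 ± 0.16, and it did not pass the test (edgeR adjusted p = 0.28, unadjusted p = 0.0293; DESeq2 adjusted p = 0.0601). With library sizes of the miRNA table it was -0.31.

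The proximal locus had 1 fixed start and many ends. Of its 53 sequences, 49 began at position 16188, and these held 98.5% of the UMIs. Their 3' ends varied, and their lengths ran from 20 to 45 bases. Transcripts of the light-strand promoter have the same orientation; whether these RNAs come from it was not tested. The 20-base form was the most abundant, with 305, 320 and 244 UMIs in CYP and 386, 359 and 438 in Control, and the next was the 28-base form, with 178, 148 and 150 UMIs in CYP and 224, 210 and 241 in Control. When the 49 sequences of the locus that passed the filter were tested singly, 1 was lower in CYP. This was a 32-base form with 60, 57 and 60 UMIs in CYP and 102, 93 and 110 in Control (log2 fold change -0.96 ± 0.18, edgeR adjusted p = 0.042). The log2 fold change was below 0 for 34 of the 49, but these are overlapping forms of 1 locus in the same libraries, not separate observations.
The 32-base form: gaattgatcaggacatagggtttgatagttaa

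Reference letters of the control region were not used here, so the longest sequence served as the template for the shorter ones. By that measure 29 of the 53 sequences followed the template to their last base. Of the others, 22 ended in 1 to 4 letters A that begin where they depart from it, and 2 ended in other letters. Among sequences with the shared start, the A-ended ones held 28.8%, 29.7% and 24.4% of the UMIs in CYP and 24.4%, 21.9% and 24.7% in Control, which overlapped (exact two-sided permutation p = 0.3). Over the 36 of these sequences with at least 10 UMIs in every library, the shares were 25.66%, 26.08% and 22.59% in CYP and 20.80%, 20.08% and 21.01% in Control. There the groups did not overlap, at 24.8% ± 1.90 in CYP and 20.6% ± 0.487 in Control (SD, n = 3 each), and the exact permutation p of 0.1 is the smallest the design allows.

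**Figure D5:**
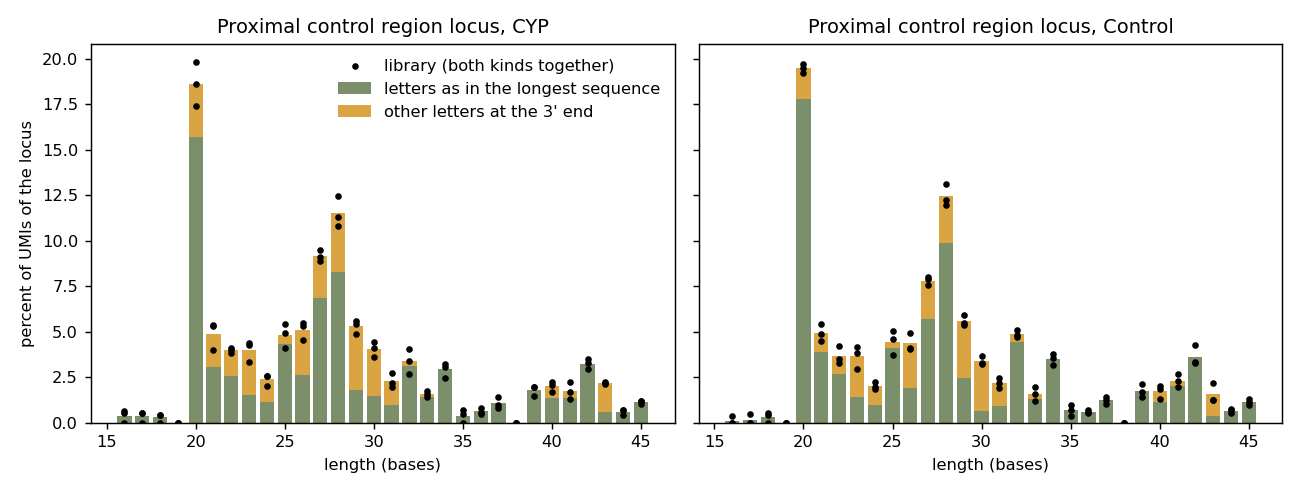
Share of the UMIs of the proximal control region locus at each length, in percent, CYP left and Control right. Bars are group means, split into sequences that follow the longest sequence to the end and those with other letters at the 3' end; points are libraries. Both groups peak at 20 bases and again at 28 bases.

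The distal locus of the control region (chrM:15608-15642) was a single sequence of 35 bases on the same strand. It had 52, 49 and 32 UMIs in CYP and 58, 58 and 48 in Control. The groups overlapped, and the log2 fold change was -0.50 ± 0.31 (edgeR adjusted p = 0.48). The last, between mt-Tn and mt-Tc, where the origin of light-strand replication lies, was a single sequence of 19 bases (chrM:5158-5176), of which the last 2 lie in mt-Tn. The first of these 2 differs from the reference (T5159A, letters of the minus strand). The locus was small. It had 11, 10 and 11 UMIs in CYP and 7, 12 and 0 in Control, and its groups overlapped.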

How the data were processed

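Small RNA from 3 CYP and 3 Control libraries was analysed from the deposited tables, which hold whole-number counts of reads and of UMIs per feature, not normalized, per the file headers. The submitters' processing notes name the mm10 build and STAR 2.6, FastQC 0.11.7, Trim Galore and DESeq2, with no role; the sources used here name no counting tool. UMI counts were used. The table of uncharacterized sequences holds 51010 to 68682 UMIs per library, and Wilson 95% intervals of a mitochondrial share were at most 0.256 percentage points to each side, covering counting error only. Deposited positions count from 0 and were moved to 1-based. Reference letters and genes are GENCODE M21 (mm10), which has no transcript over 934 bases of the chromosome, the control region included.

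All loci of the table were fitted together with edgeR 4.0.16 in R 4.3.3 (robust quasi-likelihood test, TMM scaling, filterByExpr at its default minimum count, 10, and total, 15); a call is a Benjamini-Hochberg adjusted p under 0.05. The tRNA table was fitted alone. Counts were simulated for all 363 loci of the table, with 121 of them changed. There the test recovered 17.5% of 2-fold and 77.5% of 4-fold changes, with 4.76% of its calls false. How many loci truly changed in these data is not known, so their rates may differ. Library values used exact permutation tests (scipy 1.17.1). Alternatives included DESeq2 1.42.0, other scalings, filters and merge windows, read counts, a replicate block and each library left out. All 17 loci are named, and sequences shown are the most abundant of the main loci and the forms a result turns on. The members, lists and tests were chosen with earlier results of these data known. The 5 sheets of the kit maker's analysis workbook were not used here.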

Additional observations from a re-analysis of the deposited data

How the results depend on the processing

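The number of mitochondrial loci called, 1, was the same under 16 of 21 alternatives. It was 5 when each sequence was tested on its own, and it ran from 0 to 1 with 1 library left out, being 0 without CYP replicate 1, CYP replicate 2 or Control replicate 3. Without the 2 libraries that list no value from 1 to 9, an alternative chosen after seeing the data, it was 0, and the mt-Th 3' end then had a log2 fold change of -1.11 (edgeR adjusted p = 0.343); with 2 libraries a group the cause of the loss was not tested. Across all 20 alternatives that value stayed between -1.19 and -0.97. The count of annotated mitochondrial tRNAs called, 0, ran from 0 to 8 with 1 library left out and was 0 under the other alternatives; there mt-Th had a log2 fold change of -1.02 (adjusted p = 2.24e-05) without Control replicate 1 and -1.02 (adjusted p = 0.0264) without Control replicate 3. The 3 library values kept their sign under every alternative tried, but with 1 library left out the strand share difference ran from -5.21 (without Control replicate 1) to -0.0446 percentage points (without CYP replicate 1).

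No other locus passed the threshold under any alternative that tested loci, but 7 changed sign. With each sequence tested on its own, 1 sequence of the proximal control region locus passed it. With library sizes of the miRNA table, which raised the median of all loci by 0.10, mt-Th 5' end was at 0.0408, and without Control replicate 1 as well it was at 0.0710, mt-Rnr2 interior b at 0.00581 and mt-Tf at -0.0792. With values under 10 UMIs set to 0, mt-Rnr1 3' end was at 0.0924 and mt-Ts2 at 0.0299. With 1 library left out, mt-Tf ran from -0.24 to 0.34, mt-Th 5' end from -0.19 to 0.0545, mt-Tv from -0.56 to 0.0713, mt-Ts2 from -0.30 to 0.0239 and the mt-Tn to mt-Tc gap from -0.19 to 1.30. Whether the replicate numbers pair the libraries was not settled. Over the loci, same-numbered libraries had correlations of deviations of 0.29, -0.15 and -0.0042, and not every library correlated best with its own number. In the tRNA table these correlations were 0.37, 0.016 and 0.47, and each CYP library correlated best with the Control library of its own number. The replicate block left 1 locus called (mt-Th 3' end, log2 fold change -1.06, adjusted p = 3.74e-04) and 0 annotated tRNAs. With 121 of all 363 loci changed in simulated counts, 17.5% of 2-fold changes were recovered, so many changes of that size could be missed.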

Other observations

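The same table lists 47 further sequences at nuclear positions whose letters are those of the mitochondrial chromosome as GENCODE transcripts give it, apart from up to 3 bases at the 3' end; 46 read along a gene and 1 against it. They are 16 to 41 bases long, and 35 of them end in CCA. They are no members of the mitochondrial loci, but 23 have letters that lie within 1 of them. They held 1421, 1875 and 1524 UMIs in CYP and 1189, 1905 and 2181 in Control, which overlapped. mt-Tv, the valine tRNA gene, had the most of these, with 497, 665 and 463 UMIs in CYP and 411, 803 and 739 in Control. mt-Tw, the tryptophan tRNA gene, which has no mitochondrial locus in the table, had 6 such sequences, all ending in CCA, with 147, 212 and 215 UMIs in CYP and 104, 229 and 305 in Control. mt-Tq, the glutamine tRNA gene, had 63, 95 and 78 UMIs in CYP and 24, 94 and 138 in Control. mt-Rnr2 had 434, 412 and 300 UMIs in CYP and 381, 298 and 352 in Control. mt-Th had 4 such sequences, 3 of them ending in CCA, with 52, 67 and 68 UMIs in CYP and 87, 80 and 154 in Control. They are not in the shares of the mt-Th forms given above. Adding the sequences that lie in a locus to it, an alternative chosen after seeing the data, left 1 mitochondrial locus called, the mt-Th 3' end at a log2 fold change of -1.07 (edgeR adjusted p = 0.0106). It moved mt-Rnr2 interior a to -0.15, against -0.61 without them, and mt-Rnr2 3' end to 0.24, against 0.61 without them.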
